A study of Mus musculus with 12 samples.

Results

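Grm5, Gria1, Dlg2 and Dlgap1 encode glutamate receptors and the scaffold proteins that hold such receptors at the postsynaptic membrane, and all 4 carried YTHDF1 CLIP peaks in mouse striatum. These 4 genes were taken by symbol from 1247 genes listed in either of 2 tables of peaks per gene, 1 for mice given cocaine and 1 for mice given saline. Of the 4, 2 were in the cocaine table (Grm5 and Dlgap1), 3 in the saline table (Gria1, Dlg2 and Dlgap1) and only Dlgap1 in both.

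Excitatory synapses on striatal neurons receive glutamate from cortex and thalamus. Glutamate opens ion channel receptors, among them the AMPA receptors, and also activates metabotropic receptors that signal through G proteins. Both kinds are anchored in the postsynaptic density, where membrane-associated guanylate kinases of the Dlg family bind receptors and channels, and Dlgap proteins link them to the deeper Shank and Homer layer. YTHDF1 is a cytoplasmic protein that reads the RNA modification N6-methyladenosine (m6A) and is known for raising the translation of bound RNAs.

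The mice were wild type, of the C57BL/6J strain, and received cocaine or saline; the sources used here do not give dose, schedule, age or time of collection. The series holds 12 samples in 4 groups of 3, namely CLIP and input libraries of each treatment, and the 6 input libraries were not analysed here. CLIP-seq crosslinks protein to RNA with ultraviolet light, precipitates the protein (here with a monoclonal antibody against YTHDF1) and sequences the RNA held by it. The labels name striatal neurons, although the protocol describes lysis of whole tissue, and nothing in them ties each library to an animal of its own. The p-values therefore reflect only how far these libraries differ, which may be technical. The files give no replicate number for the columns, and libraries are numbered 1 to 3 by column order.

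A value below is the number of peaks that the authors counted in a gene in 1 library, a whole number and not a count of reads. The genes listed for cocaine held 24770 to 25528 peaks per library and those listed for saline 3720 to 3944, and the reads behind them are unknown. Every listed gene had a peak in all 3 libraries and a mean above 6 peaks in cocaine or above 1 in saline. These limits were inferred from the values and taken as the rule for listing. Under that rule, a gene that is not in a table was below its limit or had no peak in at least 1 library. Its value there is not known. No value is corrected for the abundance of the RNA, so more RNA and more binding per RNA cannot be told apart, and neither can more RNA per cell and more cells of a type.

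Grm5 encodes mGluR5, a metabotropic glutamate receptor that signals through Gq proteins and is abundant in striatal projection neurons. It lies on chromosome 7 from 87583981 to 88135063 (GRCm38.p6, the assembly that mm10 names). It had 10, 9 and 6 peaks in the 3 cocaine libraries, a mean of 8.33 ± 2.08 (SD, n = 3), and was not in the saline table. The 3 libraries ranged from 6 to 10 peaks, and the SD was below the 2.89 that counting error alone would give if peaks were independent. The same held for Gria1, Dlg2 and Dlgap1 in saline, but not for Dlgap1 in cocaine. An SD of 3 values is too rough to read more into this.

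Gria1 encodes GluA1, a pore-forming AMPA receptor subunit whose delivery to the synapse is a known step of synaptic plasticity. It lies on chromosome 11 from 57011571 to 57330244. It had 2, 3 and 3 peaks in the saline libraries, a mean of 2.67 ± 0.577 (SD, n = 3), and was not in the cocaine table. Its saline libraries differed by at most 1 peak.

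Dlg2 encodes a membrane-associated guanylate kinase scaffold with PDZ domains that bind the tails of receptors and channels. It lies on chromosome 7 from 90476188 to 92449246, downstream of Grm5. It had 4, 6 and 4 peaks in the saline libraries, a mean of 4.67 ± 1.15 (SD, n = 3), and was not in the cocaine table. Its lowest saline library was above the highest of Gria1, 4 against 3 peaks, but Dlg2 is the longer gene.

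Dlgap1 encodes a protein that binds the guanylate kinase domain of Dlg scaffolds and joins them to Shank. It lies on chromosome 17 from 69969073 to 70821413. It had 5, 9 and 11 peaks in the cocaine libraries, a mean of 8.33 ± 3.06 (SD, n = 3). In the saline libraries it had 2, 2 and 1 peaks, a mean of 1.67 ± 0.577 (SD, n = 3). Its cocaine mean equalled that of Grm5. Its coefficient of variation in cocaine, 36.7%, was above the 25% of Grm5 and close to the median of 37.3% over all genes listed for cocaine.

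**Figure D1:**
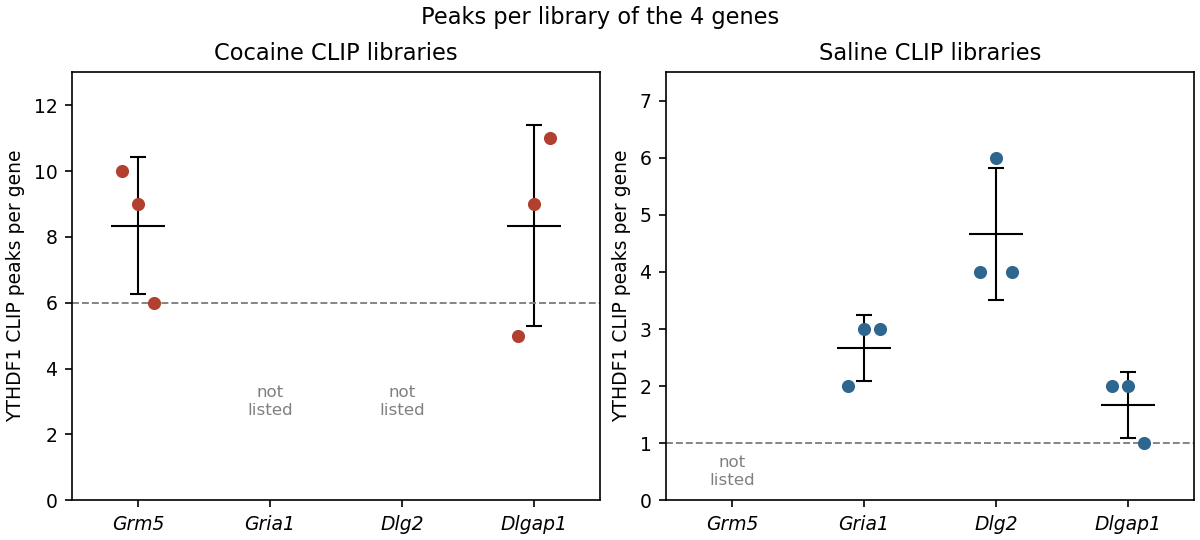
YTHDF1 CLIP peaks per gene (vertical axis, different scale in each panel) for Grm5, Gria1, Dlg2 and Dlgap1 in the cocaine and saline libraries. Points are single libraries, the horizontal bar is the mean, and error bars are the SD over 3 libraries. The dashed line is the inferred limit that the mean of every listed gene exceeded (6 in cocaine, 1 in saline). The words "not listed" mark a gene with no value in that table. The lowest cocaine libraries of Grm5 (6 peaks) and Dlgap1 (5 peaks) are at or below the dashed line. So is the lowest saline library of Dlgap1 (1 peak).

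By number of peaks, Grm5 and Dlgap1 stood in the lower range of the cocaine table, and Gria1, Dlg2 and Dlgap1 in the low to middle range of the saline table. Grm5 and Dlgap1 each had 775 of the 1049 cocaine genes above them and 234 below, against a median of 12.7 peaks over the table. In saline, 186 of 449 genes lay above Dlg2, 305 above Gria1 and 384 above Dlgap1, and the median was 4.0 peaks. Dlg2 was the only 1 of the 4 with a mean above the median of its table. The tables' lowest listed means are 6.33 and 1.33 peaks, so Dlgap1 in saline was 1 peak in all, summed over its 3 libraries, above the lowest mean.

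The 4 genes share great length, which the choice of genes did not use. Their annotated spans, introns included, are 318.7 kb for Gria1, 551.1 kb for Grm5, 852.3 kb for Dlgap1 and 1973 kb for Dlg2, against a median of 49.9 kb over the 565 coding genes listed for cocaine and 99.9 kb over the 291 listed for saline. Of all annotated coding genes, 3.33% were in either table (2.58% in that of cocaine and 1.33% in that of saline), but 22.7% of the 556 coding genes over 300 kb were (126 genes; exact 95% interval 19.2 to 26.4, counting error only), against 2.83% of the shorter ones. The limit of 300 kb was chosen after the spans of the 4 genes had been seen. At 100 kb the share of longer genes listed was 11.3% and at 500 kb 34.1%.

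Per length, the order of the genes changed. In saline, Gria1 had 0.837 ± 0.181 peaks per 100 kb of span, Dlg2 0.237 ± 0.0585 and Dlgap1 0.196 ± 0.0677 (SD, n = 3 each). The lowest library of Gria1 (0.628) was above the highest of Dlg2 (0.304), while Dlg2 and Dlgap1 overlapped. In cocaine, Grm5 had 1.51 ± 0.378 and Dlgap1 0.978 ± 0.358 peaks per 100 kb, and their libraries overlapped.

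These densities were low for listed coding genes. The median coding gene had 28 peaks per 100 kb in cocaine and 3.79 in saline, and the 4 genes stood between the 2.23 and the 18.4 percentile of their tables, Dlgap1 in saline lowest and Gria1 highest. Among listed coding genes the number of peaks hardly moved with the span (Spearman's rho 0.0419 over 565 genes in cocaine and -0.0290 over 291 in saline, as a description of genes that share their libraries and each table's lower limit), so long genes had low densities in general. The tables do not say where in a gene its peaks lie, and peaks in introns and in exons could not be told apart.

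**Figure D2:**
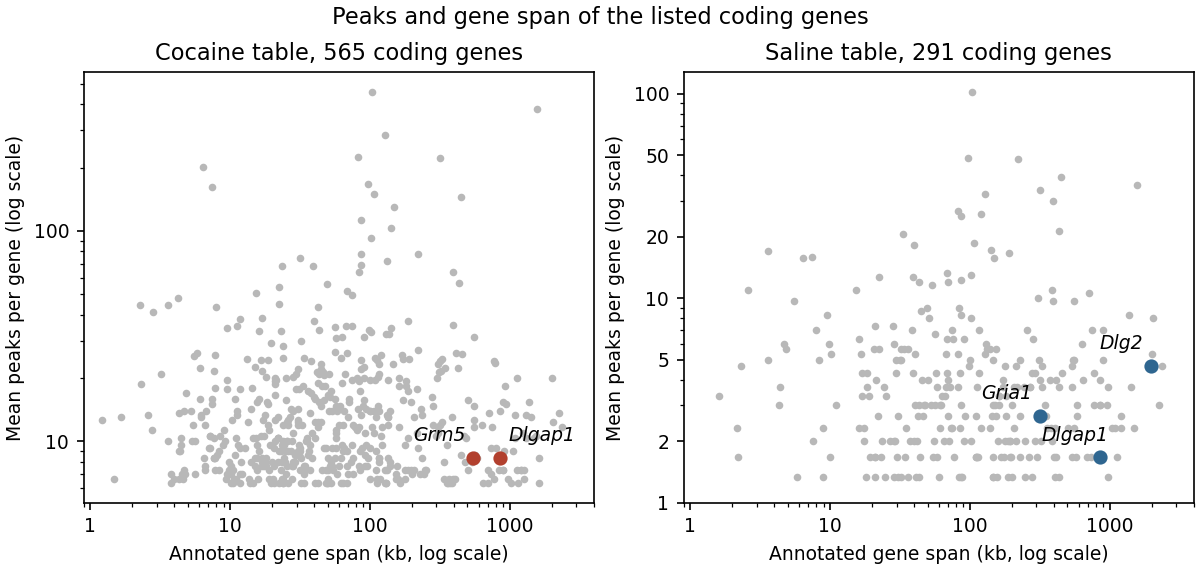
Mean peaks per gene (vertical axis, log scale) against annotated gene span in kb (horizontal axis, log scale) for the 565 coding genes listed for cocaine and the 291 listed for saline, with 1 grey point per gene. Coloured points mark Grm5 and Dlgap1 in cocaine and Gria1, Dlg2 and Dlgap1 in saline, which lie toward the long end of the span axis.

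No gene listed under a symbol overlapped any of the 4 in the annotation. Gria1 overlaps no gene at all. Grm5 overlaps 2 annotated genes, Dlg2 7 and Dlgap1 5, none of them coding and none listed under its symbol, but 327 genes listed for cocaine and 102 listed for saline have no symbol in the tables and could not be placed.

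Each of the 4 was also set beside listed genes of similar span. Nearest to Grm5 in number of peaks in cocaine, among 18 listed genes of similar span, were Adgrv1 (8.33 ± 2.52 peaks), an adhesion G protein-coupled receptor, and Csmd2 (8.33 ± 4.62). Nearest to Dlgap1 in cocaine, among 21 such genes, were Rbms3 (9.0 ± 3.0) and Wwox (9.0 ± 3.61), and in saline, among 15, Ptprm and Tenm4 (1.67 ± 0.577 each). Nearest to Gria1 in saline were the phosphodiesterase gene Pde11a (2.67 ± 0.577) and Fbxl7 (2.33 ± 2.31), among 26 genes; Pdzd2 and Spata16 were as near as Fbxl7. Only 4 listed genes matched Dlg2 in span, and Dmd, the dystrophin gene (4.67 ± 0.577), and Macrod2 (5.33 ± 1.15) were nearest in saline (SD, n = 3 libraries throughout). The medians of these span-matched genes were 10.5 peaks for Grm5 and 9.0 for Dlgap1 in cocaine, and 3.83 for Gria1, 5.0 for Dlg2 and 3.0 for Dlgap1 in saline, so each of the 4 genes lay below the median of listed genes of its length.

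The comparison of treatments asks whether YTHDF1 peaks in these genes differed between cocaine and saline. Dlgap1 is the only 1 of the 4 with values in both. It had 5.0 times as many peaks in cocaine, a log2 ratio of 2.32 (SE 0.42), and its lowest cocaine library (5 peaks) was above its highest saline library (2 peaks). An exact permutation test over libraries (2-sided) returned p = 0.1, and no smaller p can be reached with 3 against 3. With a saline mean of 1.67 peaks, Dlgap1 could be listed for cocaine only with a mean above 6 there. The direction of its ratio, and part of the size, therefore follow from the limits, and the test cannot show a rise. Such a separation was common: in 77.7% of the 251 genes in both tables every cocaine library was above every saline library, and in 0.398% every one was below. The median ratio of these genes was 4.54, and 145 of 251 had a ratio at or below that of Dlgap1.

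As a share of the listed peaks of its library, Dlgap1 did not keep this direction. It held 1.96, 3.63 and 4.42 of every 10000 listed peaks in the cocaine libraries and 5.28, 5.38 and 2.54 in the saline libraries, means of 3.34 ± 1.26 and 4.40 ± 1.61 (SD, n = 3 each). The libraries of the groups overlapped, and the log2 ratio of the means was -0.40 (SE 0.44; exact 2-sided permutation test, p = 0.5). Most genes in both tables turned the same way: their median log2 ratio of shares was -0.54. Of these 251 genes, 57.0% had a ratio of shares at or below that of Dlgap1. The listed totals follow different limits and differed by 6.57-fold between treatments, and how much of this came from sequencing depth is not known.

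For the other 3 genes the inferred lower limits of the tables give a bound. It holds only if these limits are right and every library of the other treatment had at least 1 peak in the gene. Grm5 had 25 peaks in the 3 cocaine libraries together, and at most 3 would then fit below the saline limit, a cocaine-to-saline ratio of at least 8.33. Of the 251 genes in both tables, 31 (12.4%) had a ratio that high. Gria1 had 8 peaks in saline and would have had at most 18 in cocaine, a ratio of at most 2.25, which 44 genes (17.5%) did not exceed. Dlg2 had 14 peaks in saline and would likewise have had at most 18, a ratio of at most 1.29, which 18 genes (7.17%) did not exceed. Where a library of the other treatment had no peak in the gene, the bound on the other treatment's mean does not hold. The 251 genes passed both limits, so 1 with the mean of Grm5, Gria1 or Dlg2 could not reach that gene's bound. The shares above therefore do not show that the 3 genes are unusual.

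**Figure D3:**
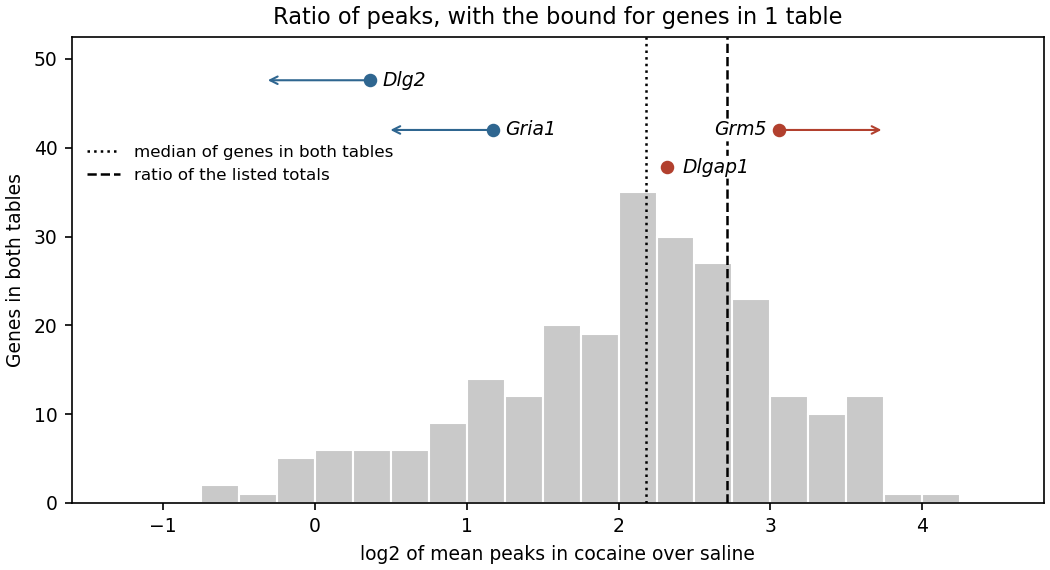
Histogram of the log2 ratio of mean peaks, cocaine over saline (horizontal axis), for the 251 genes in both tables (vertical axis, number of genes). The dotted line is their median (4.54-fold) and the dashed line the ratio of the listed totals (6.57-fold). Points above the bars mark Dlgap1 at its measured ratio of 5.0 and the bounds of Grm5 (at least 8.33), Gria1 (at most 2.25) and Dlg2 (at most 1.29), with arrows in the direction each bound leaves free; heights of these points carry no value.

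Genes at the level of Dlg2 were often in the other table, and genes at the level of Grm5 were not. Of 47 other saline genes whose 3 libraries together were within 1 peak of Dlg2, 36 (76.6%) were in the cocaine table, whereas Dlg2 was not. Over all listed genes, 55.9% of the saline genes were in the cocaine table and 23.9% of the cocaine genes in the saline table. At the level of Gria1 27 of 76 (35.5%) were, and at the level of Dlgap1 7 of 95 (7.37%). Of 91 other cocaine genes within 1 peak of Grm5 in the same sense, 8 (8.79%) were in the saline table, and Grm5, like most of them, was not.

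Each gene's share of peaks was then tested across all genes in both tables with edgeR's quasi-likelihood test. Of 202 genes that passed the filter on low counts, the share was higher in cocaine for 21 (10.4%) and lower for 36 (17.8%) at a Benjamini-Hochberg adjusted p under 0.05. With totals of all listed peaks in place of TMM factors the split was 4 higher and 47 lower, with plain totals of the tested genes 31 higher and 29 lower; the median log2 difference of the tested genes moved from -0.02 to -0.43 and 0.19. The filter scales peaks to the total of each library, so fewer peaks sufficed in the saline libraries than in the cocaine libraries. When it was left out, 21 of 251 genes were called higher and 29 lower. Dlgap1 did not pass the filter. Without the filter its log2 difference in share was 0.11 (SE 0.72, edgeR adjusted p = 0.948), and no difference was detected. Here the share is relative to the TMM-scaled totals of the 251 genes in both tables. The log2 ratio of -0.40 given above is for shares of all listed peaks.

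Of the wider set of glutamate receptor and postsynaptic genes, 17 of 84 were listed, the 4 genes above among them. The 4 were chosen among listed genes and raise this share, so it was also taken without them. Of the other 80 genes of the set, 13 were listed (16.3%), against 3.33% of all coding genes. Of its other 25 genes over 300 kb, 6 were listed (24.0%), close to the 22.7% of all coding genes of that length. Among the 55 shorter genes of the set 12.7% were listed (7 genes), against 2.83% of shorter coding genes. The shares over coding genes count every annotated gene, expressed in striatum or not, and the lists were chosen with earlier results known. Of 49 cell type markers, 12.2% were listed as well. The higher shares are therefore not shown to be a trait of the set. The median of the listed genes of the set was 12.5 peaks in cocaine and 4.67 in saline, near the 12.7 and 4.0 over all listed genes. Of the 17 genes, 6 were in cocaine alone, 5 in saline alone and 6 in both. Of all 1247 listed genes, 64.0% were in cocaine alone, 15.9% in saline alone and 20.1% in both, and the split of the set was not tested against this.

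Among ionotropic receptors, 3 of 18 were listed, none in both tables. Beside Gria1, they were Grik1, a kainate receptor subunit, with 9, 7 and 4 peaks in cocaine (6.67 ± 2.52), and Grin2c, an NMDA receptor subunit, with 2, 1 and 1 peaks in saline (1.33 ± 0.577). Grik1 was 1 peak in all above the lowest listed mean of its table, and Grin2c was at the lowest of its own. The other AMPA receptor genes, Gria2, Gria3 and Gria4, were in neither table.

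Among metabotropic receptors, 2 of 8 were listed. Beside Grm5, this was Grm8, a presynaptic receptor in many synapses, which had 2, 5 and 5 peaks in saline (4.0 ± 1.73) and was not in the cocaine table. None of 14 auxiliary subunits of glutamate receptors was listed.

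Of postsynaptic scaffolds, 6 of 20 were listed. Beside Dlg2 and Dlgap1, they were the multi-PDZ scaffolds Magi2 and Magi3 and the AMPA receptor binding proteins Grip1 and Grip2. Magi2 resembled Dlgap1, with 10, 8 and 13 peaks in cocaine (10.3 ± 2.52) but 4, 1 and 2 in saline (2.33 ± 1.53), and its groups did not overlap. Grip1 had 14, 7 and 15 peaks in cocaine (12 ± 4.36) but 11, 5 and 2 in saline (6.0 ± 4.58), and its groups overlapped. Grip1 overlaps the listed non-coding genes Grip1os1 (18.0 ± 9.0 peaks in cocaine) and Grip1os2 (24.7 ± 7.51), and the tables cannot separate their peaks. Magi3 (13 ± 5.29) was in cocaine alone and Grip2 (5.33 ± 2.89) in saline alone. Of the Dlg and Dlgap families, Dlg1, Dlg3, Dlg4, Dlgap2, Dlgap3 and Dlgap4 were in neither table, and neither were Shank1 to Shank3 or Homer1 to Homer3.

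Of postsynaptic signalling and adhesion genes, 6 of 24 were listed. Lrrc4, which encodes a leucine-rich repeat adhesion protein that binds Dlg scaffolds, had the most peaks of the set, 44, 45 and 45 in cocaine (44.7 ± 0.577) but 16, 17 and 18 in saline (17.0 ± 1.0). It lies within Snd1, which was also listed (26 ± 8.54 in cocaine and 4.33 ± 3.06 in saline), and their peaks could not be told apart. Il1rapl1, a synaptic adhesion gene, had 22, 9 and 15 peaks in cocaine (15.3 ± 6.51) but 12, 6 and 7 in saline (8.33 ± 3.21). Sipa1l1, which encodes a scaffold protein of dendritic spines, had 11, 19 and 14 peaks in cocaine (14.7 ± 4.04) but 5, 5 and 9 in saline (6.33 ± 2.31). The groups of Lrrc4 and Sipa1l1 did not overlap and those of Il1rapl1 did. With Dlgap1 and Magi2, 4 of the set's 6 genes in both tables had every cocaine library above every saline library, against 77.7% of all genes in both tables.

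The remaining 3 of these genes were in cocaine alone. They were Lrrtm1 (14.3 ± 6.66), Lrrtm3 (20.0 ± 5.29) and Lrrc4c (10.3 ± 4.93). Lrrtm3 lies within the listed alpha-catenin gene Ctnna3 (381 ± 9.87 peaks in cocaine), and their peaks could not be told apart.

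Of the set's 6 genes in both tables, 3 passed the filter and were tested for share. Because the filter asks for fewer peaks in saline, it can favour genes with a high share there. When it was left out, none of the 6 was called in either direction (edgeR adjusted p = 0.0750 for Lrrc4 and 0.0561 for Il1rapl1). The calls below therefore hold only for genes so selected. Lrrc4 had a lower share in cocaine by a log2 difference of -0.91 (SE 0.31, edgeR adjusted p = 0.0430) and Il1rapl1 by -1.41 (SE 0.46, edgeR adjusted p = 0.0321). Both calls are near the threshold, and that of Lrrc4 rests on peaks that could not be told apart from those of Snd1. Lrrc4 was called under 2 of 11 other settings (edgeR or DESeq2 adjusted p 0.00443 to 0.142) and Il1rapl1 under 2 of the 8 that tested it (0.00714 to 0.276), and leaving out any 1 saline library ended both calls (edgeR adjusted p 0.0861 to 0.128 and 0.0639 to 0.276). Lrrc4 also lost its call without cocaine library 1 or 3 (edgeR adjusted p = 0.0569 and 0.0644), and Il1rapl1 did not pass the filter without any 1 of the cocaine libraries. Sipa1l1 had a log2 difference of -1.09 (SE 0.43, edgeR adjusted p = 0.0728) and was not called. It was called under 1 of 8 other settings, with totals of all listed peaks (log2 difference -1.49, edgeR adjusted p = 0.0186). None of these 3 genes had a higher share, and the other 14 listed genes of the set were not part of this fit.

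**Figure D4:**
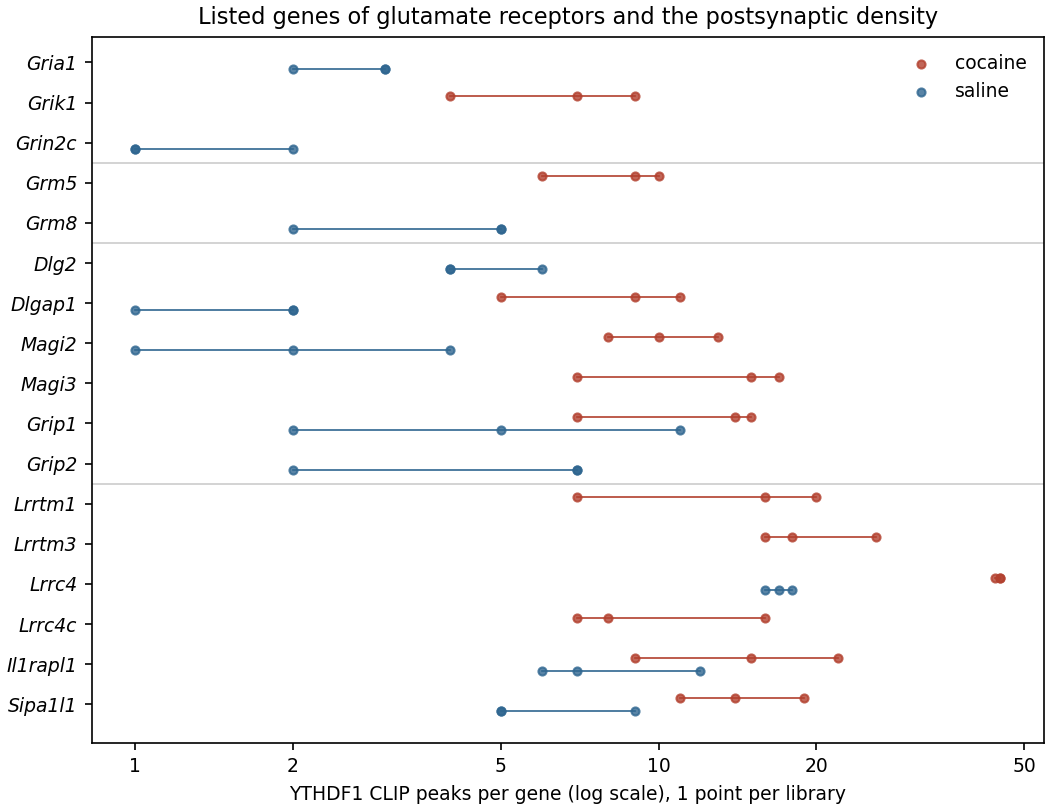
Peaks per gene in each library (horizontal axis, log scale) for the 17 listed genes of the glutamate receptor and postsynaptic set, grouped by grey lines into ionotropic receptors, metabotropic receptors, scaffolds, and adhesion and signalling genes. Points are libraries (cocaine red, saline blue; equal values coincide), lines join the lowest and highest of a group, and a missing colour means that the gene was not in that table; Lrrc4 lies at 44 to 45 peaks in cocaine, far above Grm5 and Dlgap1.

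Of 49 markers of striatal neurons and of other cell types, 6 were listed (12.2%), against 3.33% of all coding genes, expressed in striatum or not. Of 15 markers of striatal neurons, Gnal alone was listed (8.0 ± 3.61 peaks in cocaine, 2.33 ± 0.577 in saline), and Drd1, Drd2 and Ppp1r1b were in neither table. Of 8 microglia markers, 3 were listed. Cx3cr1 had 25 to 36 peaks in cocaine and was not in the saline table. P2ry12 had 18 to 24 in cocaine and 3 in each saline library. Itgam had 2 in each saline library and was not in the cocaine table. P2ry12 lies within Med12l, which was also listed (21.3 ± 9.24 in cocaine and 5.0 ± 3.46 in saline), and their peaks could not be told apart. Cnp was listed of 10 oligodendrocyte markers (29 to 44 peaks in cocaine, 3 to 4 in saline), Pecam1 of 8 vascular markers (2 to 4 in saline alone) and none of 8 astrocyte markers. The part of other cell types in the peaks of the 4 genes was not tested.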

How the data were processed

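Values were read from the deposited tables, in which the authors give a whole-number count of CLIP peaks per gene for each of 3 libraries per treatment, and their mean, a signal used only to check the columns. Per the submitters' processing notes, cutadapt, STAR and mm10 were used; versions, peak-calling settings, any use of the inputs and how peaks were assigned to genes are not stated in the sources at hand. The tables' names point to CLIPper. A letter in a table's name, c or s, which opens the library names in the labels, gave its treatment.

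Repeated lines of a gene (1084 lines for 1049 genes in cocaine, 463 for 449 in saline) were counted once. Spans and overlaps come from RefSeq's GRCm38.p6 annotation, in which 714 cocaine and 343 saline genes were found by symbol. Intervals cover counting error only, and peaks of 1 gene are not independent. Shares were tested in R 4.3.3 by the quasi-likelihood test of edgeR 4.0.16, after filterByExpr and with TMM factors, with DESeq2 1.42.0 as an alternative, and the script was tested on simulated data. The SE of a log2 ratio of Dlgap1 means was taken from the SDs of both groups. Other values were computed in Python 3.11.15 with SciPy 1.17.1 and pandas 2.3.3.

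The genes and lists were chosen with earlier results of these data known. Named genes are the 4 genes, every listed gene of 5 glutamate and postsynaptic lists, genes that overlap a gene so named where listed, and the 2 listed genes nearest in peaks among those within 1.25 times the span of each of the 4. Unlisted relatives, and cell type markers with listed genes that overlap them, are named beside their counts.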

Additional observations from a re-analysis of the deposited data

How the results depend on the processing

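Means of the 4 genes were taken again with a library left out, and the median was taken in their place. Grm5 then ranged from 7.5 to 9.5 peaks, Gria1 from 2.5 to 3.0 and Dlg2 from 4.0 to 5.0. Dlgap1 ranged from 7.0 to 10 in cocaine and 1.5 to 2.0 in saline. The log2 ratio of Dlgap1 (2.32) ranged from 2.06 to 2.58 with a library left out. It turned to -0.40 as a share of listed peaks, where the median of all genes in both tables was -0.54. Genes with a higher share (21) fell to 4 with totals of all listed peaks, and ranged from 6 to 21 with a library left out. Genes with a lower share (36) fell to 23 with DESeq2, and ranged from 17 to 28 with a library left out. Without a cocaine library fewer genes passed the filter (103 to 108 in place of 202). With the limit of a mean above 6 peaks applied to each table, 1 ionotropic and 1 metabotropic receptor gene stayed listed in either, in place of 3 and 2. Postsynaptic scaffolds fell from 6 to 4, and signalling and adhesion genes stayed at 6. Gria1 and Dlg2, with saline means of 2.67 and 4.67, would then not be listed. Dlgap1 would stay in cocaine but not in saline (1.67). Peaks per exon length were not run, because exon lengths were not used here. No paired analysis was possible because the columns carry no replicate number.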

Other observations

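Grm5 and Dlg2 are neighbours on a large scale. They lie 2.34 Mb apart on chromosome 7 (GRCm38.p6), with 16 annotated coding genes between them, of which only Tmem126a was in either table.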
